A study of Homo sapiens with 10 samples.

Results

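TCHH, TCHHL1, RPTN, HRNR, FLG, S100A10 and S100A11 are 7 genes of the epidermal differentiation region on chromosome 1, described here by where ZMYND8 was found on them in HEK293 cells. They make up 7 of the 20098 protein-coding genes of the annotation on the autosomes and chromosome X. They were chosen by a measured value: 1 of the 5 widest ZMYND8 peaks lies inside TCHH, and the other 6 genes are its neighbours. The width of that peak and its place in TCHH are therefore given as a description, and nothing is supported with them.

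The data are 2 peak lists from chromatin immunoprecipitation followed by sequencing (ChIP-seq) in HEK293, an established human embryonic kidney cell line. For the ZMYND8 ChIP (2 replicates), an antibody to ZMYND8 was used. The labels say that the Flp-In T-REx HEK293 line carried stable 3×FLAG-ZMYND8 in its WT or N228F form, but do not name the form in these cells. For the FLAG-ZMYND8 ChIP (2 replicates), the tagged protein was pulled down through its FLAG epitope after induction in the same kind of line with doxycycline (10 nM). The series also holds H3K14ac ChIP (2 replicates), H3K27ac ChIP (2 replicates), 1 input and 1 FLAG input, which were not analysed here. Each target has a single deposited list, in which replicates are not told apart and reads are not counted. Depth and spread are therefore unknown, and no difference was tested. The lists hold no expression values, so the cell type could not be checked against marker genes, nor can it be said whether any of the 7 genes was transcribed.

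ZMYND8 is a chromatin protein whose PHD, bromodomain and PWWP modules lie side by side and read modified histone tails and DNA. The epidermal differentiation region groups genes that keratinocytes switch on late, as they build the hardened outer layer of the skin. Its S100-fused genes encode a calcium-binding S100 head followed by a long tail that is repetitive in most of them. Trichohyalin (TCHH) strengthens the inner root sheath of the hair follicle, filaggrin (FLG) bundles keratin filaments, and hornerin (HRNR) and repetin (RPTN) are related proteins of the cornified layer. S100A10 and S100A11 are free S100 proteins that pair with annexins and are made in many cell types.

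All 7 genes lie on the minus strand of GRCh37 (the same build as hg19) and have 3 exons, of which exon 3 holds the most coding sequence. In the S100-fused genes that exon encodes the long tail. The stretches printed here are read 5′ to 3′ on the coding strand, with CpG sites in capitals. They set a part of the TCHH exon under peaks beside parts of the exons of 2 neighbours that had no peak. The first is the middle of the TCHH stretch found in both lists, at chr1:152083742-152084041, and the others are the centres of the exons of TCHHL1 (chr1:152058583-152058882) and HRNR (chr1:152189611-152189910).
TCHH: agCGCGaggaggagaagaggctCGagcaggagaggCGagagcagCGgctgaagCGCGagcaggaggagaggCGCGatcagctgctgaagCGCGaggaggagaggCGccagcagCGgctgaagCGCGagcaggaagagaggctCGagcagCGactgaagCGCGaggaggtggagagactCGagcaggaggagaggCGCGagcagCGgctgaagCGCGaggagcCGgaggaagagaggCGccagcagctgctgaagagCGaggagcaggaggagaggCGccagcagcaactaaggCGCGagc
TCHHL1: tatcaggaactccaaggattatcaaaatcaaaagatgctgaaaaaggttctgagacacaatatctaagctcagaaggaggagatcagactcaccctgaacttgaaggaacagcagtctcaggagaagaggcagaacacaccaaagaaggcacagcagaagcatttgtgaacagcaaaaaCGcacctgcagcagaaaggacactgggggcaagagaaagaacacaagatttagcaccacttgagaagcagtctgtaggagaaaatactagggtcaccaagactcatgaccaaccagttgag
HRNR: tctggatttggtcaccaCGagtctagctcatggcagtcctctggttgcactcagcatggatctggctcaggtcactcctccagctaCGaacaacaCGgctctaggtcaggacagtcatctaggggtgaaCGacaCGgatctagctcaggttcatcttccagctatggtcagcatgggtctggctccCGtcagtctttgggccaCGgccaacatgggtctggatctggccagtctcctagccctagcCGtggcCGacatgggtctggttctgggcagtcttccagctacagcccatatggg
In these 300 bases TCHH has 31 CpG sites, against 1 in TCHHL1 and 9 in HRNR. The TCHH stretch is also made mostly of A and G, with 74% purines on the coding strand, against 64.7% in the TCHHL1 stretch and 46.3% in the HRNR stretch. It was not taken from the exon centre but from a part richer in CpG sites than the whole exon. That part has 9.37 CpG sites per 100 bp, against 6.98 over the coding exon of TCHH and 3.46 over that of HRNR. The contrast in CpG sites with HRNR is therefore larger here than between the whole exons.

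A peak was found over TCHH in both lists, and in each list it lay inside the coding part of the last exon and away from the gene start. The TCHH gene runs from 152078793 to 152087920, and its exon 3 from 152078793 to 152085554, of which 152079864 to 152085554 (5691 bp) is coding. The ZMYND8 peak, at chr1:152080436-152085224, is 4789 bp wide and ranks 5 by width among 15086 peaks, of which 7995 have the minimum width of 151 bp. It covers 84.2% of the coding part of exon 3, and its midpoint lies 5090 bp downstream of the gene start. All of its 4789 bp are coding, so no base falls in an intron, an untranslated part or outside the gene. The next peak by width, rank 6, is 4781 bp wide on chromosome 16, covers a gene start, and has NTN3 (netrin 3) as the nearest gene, with 9.31% of its bases in coding sequence.

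The FLAG-ZMYND8 list, which the choice of the genes did not use, holds 2 peaks in TCHH, and both are also wholly coding. The wider, at chr1:152083107-152084675, is 1569 bp wide, ranks 277 among 63690 peaks and lies wholly inside the ZMYND8 peak. The narrower, at chr1:152080097-152080487, is 391 bp wide and shares 52 bp with the downstream edge of the ZMYND8 peak. Of the 1960 bp under the FLAG-ZMYND8 peaks, 1621 bp (82.7%) lie in the ZMYND8 peak, and these make up 33.9% of it. The lists thus meet at the same exon but differ in extent, since the ZMYND8 call spans the 2619 bp that separate the FLAG-ZMYND8 calls. A peak of either list covers 5128 bp, or 90.1%, of the coding part of the exon.

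**Figure D1:**
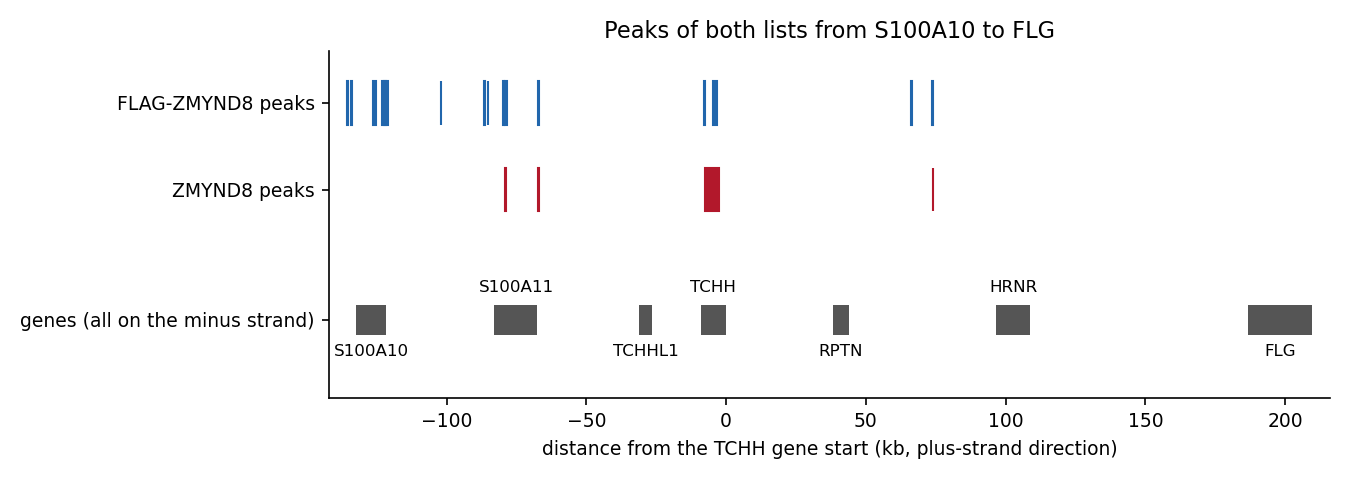
Peaks of the ZMYND8 list (red) and of the FLAG-ZMYND8 list (blue) from S100A10 to FLG, with the 7 genes as grey bars. The x axis is the distance from the TCHH gene start in kb, and the widest mark is the 4789 bp ZMYND8 peak inside TCHH. Marks have a minimum drawn width, so the narrowest peaks look wider than they are.

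Of the 7 genes, 2 had a ZMYND8 peak over the gene body (S100A11 and TCHH), where 40.1% of all protein-coding genes had one. In the FLAG-ZMYND8 list 3 did (S100A10, S100A11 and TCHH), against 65.8% of all protein-coding genes. Within 3 kb of the gene start, S100A11 alone had a ZMYND8 peak (34.1% of all protein-coding genes), and S100A10 and S100A11 had a FLAG-ZMYND8 peak (58.1%). With so few genes these counts are not set apart from the share of all genes. TCHH was the member with peaks over its body in both lists and none at its start.

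S100A10, at 151955391 to 151966335, had 4 FLAG-ZMYND8 peaks over its body and no ZMYND8 peak, the nearest of which lay 42541 bp away. The FLAG-ZMYND8 peaks are 883, 578, 420 and 762 bp wide and cover 1962 bp, or 17.9% of the gene. The peak of 762 bp covers the gene start, and 3 of the 4 have their midpoint within 3 kb of it. The widest, of 883 bp, lies in an intron with its midpoint 4330 bp downstream of the start, and none of the 4 holds coding sequence. Read per base, this gene and TCHH had almost the same number of bases under FLAG-ZMYND8 peaks, 1962 and 1960 bp, in noncoding sequence of S100A10 and in the last coding exon of TCHH.

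S100A11, at 152004982 to 152020383, is the only other member with a ZMYND8 peak over its body. That peak, at chr1:152008876-152009278, is 403 bp wide, lies in an intron by the annotation and shares 340 bp with a FLAG-ZMYND8 peak of 563 bp at chr1:152008939-152009501. Position 152020383 is the most upstream transcript start, whereas the other annotated transcript of the gene starts at 152009480, under that FLAG-ZMYND8 peak. A further pair lies just upstream of the distal start, a ZMYND8 peak of 243 bp and a FLAG-ZMYND8 peak of 384 bp that share 234 bp. Both shared sites of S100A11 therefore lie next to a transcript start, in contrast to the shared stretch in TCHH. For comparison with the TCHH stretch, 300 bases of the intronic site are shown, chr1:152008979-152009278, on the coding strand with CpG sites in capitals.
S100A11: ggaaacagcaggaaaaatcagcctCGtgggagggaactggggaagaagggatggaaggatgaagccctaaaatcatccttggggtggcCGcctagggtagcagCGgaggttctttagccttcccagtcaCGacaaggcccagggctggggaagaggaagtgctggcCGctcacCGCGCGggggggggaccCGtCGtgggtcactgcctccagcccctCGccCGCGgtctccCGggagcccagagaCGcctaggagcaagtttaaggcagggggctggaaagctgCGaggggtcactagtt
It holds 16 CpG sites, fewer than the 31 of the TCHH stretch of the same length. Its purine share is 59.7%.

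TCHHL1, RPTN, HRNR and FLG had no peak over the body or near the start in either list. TCHHL1 (152056617 to 152061540), the immediate neighbour of TCHH, lay 18896 bp from the nearest ZMYND8 peak and 18557 bp from the nearest FLAG-ZMYND8 peak, which are the TCHH peaks. RPTN (152126071 to 152131704) lay 30159 and 22415 bp from the nearest peaks of the 2 lists, and HRNR (152184552 to 152196669) lay 22500 and 22491 bp away. FLG (152274641 to 152297715), the longest member, lay farthest from any peak, at 112589 and 112580 bp. Outside TCHH, the 232 kb from TCHHL1 to FLG held 1 ZMYND8 peak and 2 FLAG-ZMYND8 peaks. The ZMYND8 peak, at chr1:152161863-152162052, is 190 bp wide and lies wholly inside a FLAG-ZMYND8 peak of 322 bp, between RPTN and HRNR and within the noncoding FLG-AS1 and PUDPP2. Counted per 100 kb, this stretch outside TCHH held 0.431 ZMYND8 and 0.862 FLAG-ZMYND8 peaks, against 0.671 and 2.83 on chromosome 1 as a whole. The stretch from S100A10 to S100A11 held 1 ZMYND8 and 9 FLAG-ZMYND8 peaks.

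Along the TCHH exon, base content differed between the ZMYND8 peak and its flanks. The 330 bp of coding exon upstream of the ZMYND8 peak had a GC content of 52.7%, 4.24 CpG sites per 100 bp and 62.1% purines on the coding strand. Under the peak the values were 61.4%, 7.23 and 71.4%, and in the 572 bp downstream of it 58.9%, 6.47 and 63.8%. Both flanks were thus lower than the peak in all 3 measures, the upstream one by more. The downstream flank lies partly under the narrower FLAG-ZMYND8 peak, which had 59.6% GC, 7.16 CpG sites per 100 bp and 66.5% purines. The wide FLAG-ZMYND8 peak sat on the richest stretch, where GC content was 67.7% and CpG sites numbered 147, or 9.37 per 100 bp. The 2619 bp of the ZMYND8 peak between the FLAG-ZMYND8 peaks had 57.8% GC and 6.03 CpG sites per 100 bp. Purines were also higher in the wide FLAG-ZMYND8 peak (72.0%) than between the peaks (70.4%), but not highest under that peak. The 549 bp of the ZMYND8 peak upstream of the wide FLAG-ZMYND8 peak had 74.5% purines. GC content in those 549 bp was 61.4%, with 6.92 CpG sites per 100 bp. The part of base content in the extent of the calls was not tested.

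**Figure D2:**
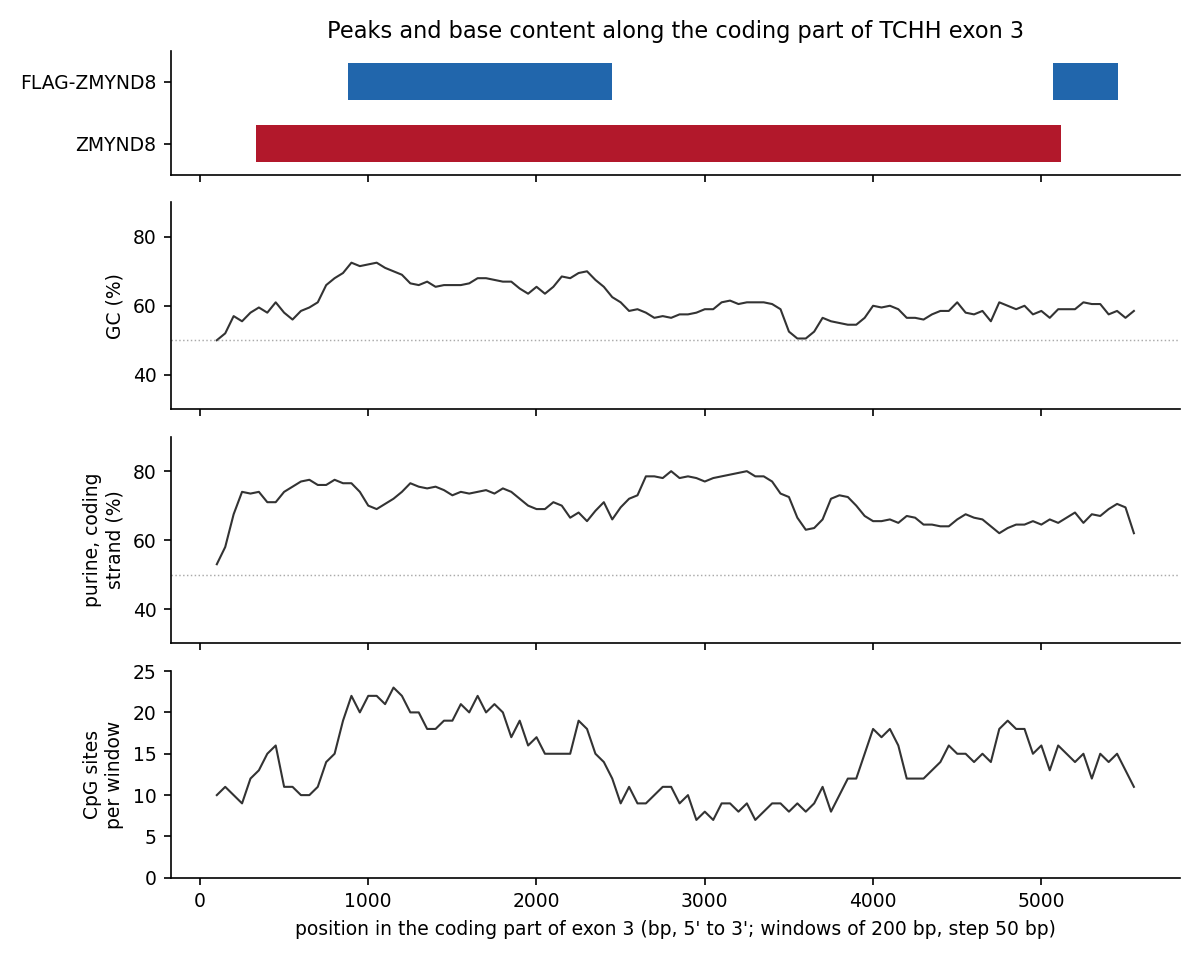
Position of the peaks (top) and GC content, purine share of the coding strand and CpG sites in windows of 200 bp along the 5691 bp coding part of TCHH exon 3, read 5′ to 3′. Windows hold 7 to 23 CpG sites, with the highest counts under the wide FLAG-ZMYND8 peak, and the purine share reaches 80%.

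The purine excess goes with the codons of the exon. GAG made up 19.4% of its 1897 codons, CAG 14.6%, CGC 8.43%, GAA 8.17% and CTG 6.48%. GAG and GAA encode glutamate, CAG glutamine and CGC arginine, the residues for which trichohyalin is known. In its neighbours other codons led, GAA with 7.93% in TCHHL1, CAG with 11.9% in RPTN, TCT with 14.3% in HRNR and TCA with 6.55% in FLG. Arginine codons of the CGN type carry a CpG site each, which the glycine and serine codons that lead in HRNR do not.

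Set beside the other S100-fused members, the TCHH exon had the most CpG sites but not the most repeated sequence. TCHH had 397 CpG sites, or 6.98 per 100 bp, against 3.46 in HRNR, 2.41 in FLG, 0.813 in RPTN and 0.155 in TCHHL1. The lowest count in any window of 200 bp was 7 in TCHH, whereas the highest was 2 in TCHHL1 and 6 in RPTN, so the windows of TCHH do not overlap with those of these genes. HRNR and FLG windows reached 16 and 10, and did overlap with TCHH. The purine share of the exon was 70.1% in TCHH, against 47.0 to 61.7% in the other 4.

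Repeated sequence was measured by aligning each exon with itself, counting the bases in alignments of at least 50 bp and 80% identity. By this measure 28.2% of the TCHH exon was repeated, against 94.2% in HRNR, 90.9% in FLG, 51.3% in RPTN and 0% in TCHHL1. The TCHH share depends on the identity asked for, at 75.6% with 70% identity and 2.65% with 90% identity, while those of HRNR and FLG stayed above 90%. The RPTN share shifted in the same way, to 72.9% with 70% identity, below TCHH, and to 10.6% with 90% identity. Most of the TCHH repeats were thus found at the lower identity only, whereas those of HRNR and FLG are near copies. The exon with the peaks is therefore not the most repetitive of the region.

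The shift at which an exon best matched itself also differed, among shifts from 6 bp to at most 1500 bp. The best match of the exon with itself came at a shift of 72 bp in TCHH, 36 bp in RPTN, 972 bp in FLG and 1410 bp in HRNR. At that shift 46.8% of the bases matched in TCHH, 58.4% in RPTN, 73.7% in FLG and 69.8% in HRNR. In TCHH a shift of 90 bp matched almost as well, at 46.4%, so 72 bp need not be the length of a repeat unit. TCHH does hold 1 stretch of exact copies, a run of 175 bp at chr1:152084406-152084580 in which a unit of 18 bp follows itself without a change. It lies under a peak of both lists and holds 9.72 copies of the unit shown here, the first at chr1:152084563-152084580. For RPTN the first 2 of 4 consecutive copies of 36 bp are shown, at chr1:152128264-152128299 and chr1:152128228-152128263, with the bases equal in all 4 in capitals.
TCHH copy 1: GAGGCGCGAGCAGCAGCT
RPTN copy 1: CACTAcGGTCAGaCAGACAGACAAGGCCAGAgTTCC
RPTN copy 2: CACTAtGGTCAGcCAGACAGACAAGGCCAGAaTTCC
The TCHH unit holds 2 CpG sites in 18 bp. In RPTN, with no peak in either list, 33 of the 36 positions are equal in all 4 copies and 1 of these copies holds a CpG site.

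Reads from repeated sequence can be hard to place, so the share of 50-base words of each exon that occur once in the genome was counted on both strands. In TCHH 95.5% of the words were unique, and the other 4.54% were repeated inside the same exon, with none found elsewhere. In HRNR 44.6% were unique and in FLG 68.4%, with the rest again repeated within the exon. RPTN (98.7%) and TCHHL1 (100%) were as unique as TCHH or more so, and had no peak. The exons of HRNR and FLG are those in which a filter on uniquely placed reads would remove the most sequence, and whether such a filter was applied is not given in the sources used here. The part of read placement in where peaks were called was not tested.

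**Figure D3:**
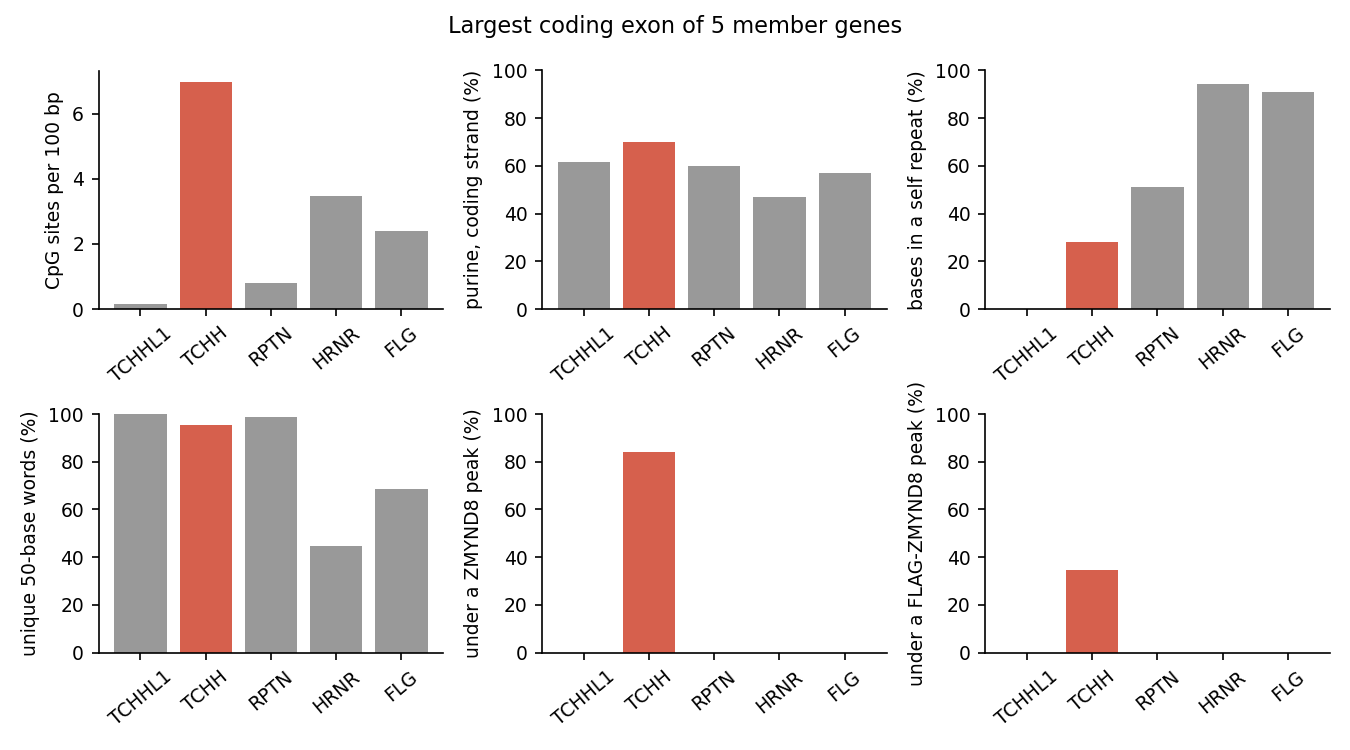
CpG sites, purine share, repeated sequence, unique 50-base words and coverage by the peaks of each list in the largest coding exon of TCHHL1, TCHH (red), RPTN, HRNR and FLG. Bars start at 0, and each is a single value from the reference sequence or from 1 list. TCHH is highest in CpG sites and purines, and it is the only one of the 5 under a peak.

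The genome holds 288 coding exons of at least 3 kb, a set of like length to the TCHH exon. A ZMYND8 peak touched 14 of them, or 4.86% (95% Wilson interval 2.92 to 7.99%). In the FLAG-ZMYND8 list 38 were touched, or 13.2% (9.77 to 17.6%). These intervals cover counting error only. No peak of either list was found over 243 of the exons, while 7 had a peak of both, TCHH among them. The long exons of HRNR and FLG belong to the majority without a peak. ZMYND8 peaks covered 4789 bp of the TCHH exon, whereas the second most covered exon, in IRS2 (an adaptor of insulin signalling), had 867 bp, a gap that follows from the choice of TCHH by its peak. In the FLAG-ZMYND8 list TCHH, with 1960 bp, lay next to PCDH7 (a protocadherin) with 1927 bp, and by percent it came second, with 34.4% of the exon against 60.7% in PCDH7.

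Of these 288 exons, that of TCHH had the highest purine share, at 70.1%, with a median of 52.7% and 66.2% in WDR87, the second. It ranked 17 in CpG sites per 100 bp (median 1.62), 55 in GC content (median 49.5%) and 25 in repeated sequence (median 0%). In unique 50-base words it ranked 241 from the highest. The purine share is therefore the property in which it stands at the end of the range. Exons with a peak lay toward the CpG-rich side when the exons were split into 4 equal groups by CpG sites. From the lowest to the highest group, ZMYND8 peaks touched 0, 1, 4 and 9 of 72 exons, TCHH among the 9. FLAG-ZMYND8 peaks touched 3, 1, 13 and 21. Exons with no gene start within 3 kb, a set without TCHH, were split likewise into groups of 51 or 52. In these, ZMYND8 peaks touched only 0, 0, 2 and 2 exons and FLAG-ZMYND8 peaks 3, 0, 5 and 12. The trend was not particular to CpG sites. Split by GC content, all 288 exons gave ZMYND8 peaks in 0, 1, 4 and 9 of 72, from lowest to highest group. FLAG-ZMYND8 peaks were then in 0, 3, 12 and 23. By purine share the order was the other way, with ZMYND8 peaks in 6, 7, 0 and 1 of 72 exons from the lowest to the highest group, the 1 being TCHH, and FLAG-ZMYND8 peaks in 12, 15, 8 and 3. A CpG content as high as that of TCHH was found in 17 exons, itself included, of which 3 were touched by ZMYND8 and 5 by FLAG-ZMYND8 peaks. Of the 30 exons with at least 20% repeated sequence, TCHH was the only one touched in the ZMYND8 list, and it and 4 others were touched in the FLAG-ZMYND8 list. Of the 258 exons under 20%, ZMYND8 peaks touched 13 and FLAG-ZMYND8 peaks 33. Over all 288 exons the shares were 4.86% and 13.2%. The counts of the 30 repeated exons are not set apart from these shares, and TCHH was chosen by its ZMYND8 peak.

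**Figure D4:**
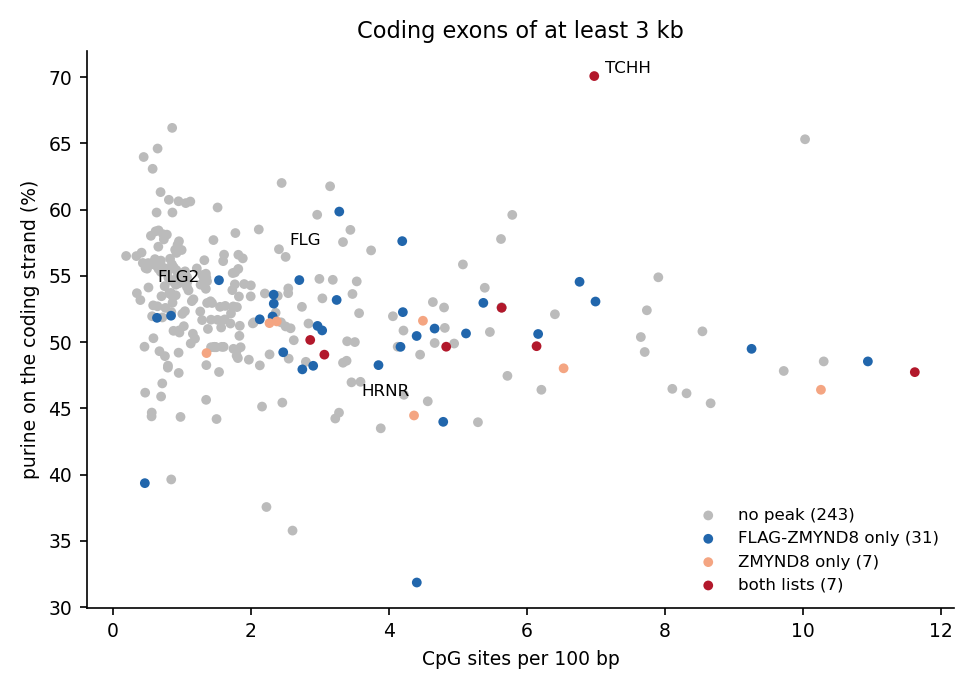
CpG sites per 100 bp against the purine share of the coding strand for the 288 coding exons of at least 3 kb, 1 point each, coloured by the lists with a peak over the exon (numbers in the key). TCHH stands above the other exons with a purine share of 70.1%, and HRNR, FLG and FLG2 lie among the exons without a peak.

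Besides TCHH, 6 genes had a coding exon of at least 3 kb under a ZMYND8 peak that covered no gene start and had its midpoint over 3 kb from one. FAM205A, GEMIN4, IRS1, ZBTB21 and ZFHX3 had 151 bp of the exon under such a peak and ZNF831 had 133 bp, all from peaks of the minimum width. Bases under a ZMYND8 peak are what chose TCHH, so its distance from these genes is a description only. Of these 6 genes, GEMIN4 (a partner of the SMN complex) and IRS1 (an adaptor of insulin signalling) also had FLAG-ZMYND8 peaks over the exon, covering 167 and 543 bp. The purine share of these exons was 49.1 to 51.6%.

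Among wide peaks, too, that of TCHH differed in its place. Of the 28 ZMYND8 peaks of at least 3000 bp, 19 covered a gene start and 7 had their midpoint over 3 kb from any, and the TCHH peak alone had at least 90% of its bases in coding sequence. The second highest coding share was 68.8% and the median 9.33%. On the richer strand its purine share was 71.4%, against 55.6% in the second and a median of 51.8%. In GC content it ranked 12 and in CpG sites 10, so in these measures it lay inside the range of the other wide peaks. Of the 322 FLAG-ZMYND8 peaks of at least 1500 bp, the one in TCHH was likewise the only one with 90% or more coding bases, and its purine share of 72.0% was the highest, before 64.1%. This limit is lower than that for ZMYND8 and lies just below the 1569 bp of the TCHH peak. Among FLAG-ZMYND8 peaks of at least 1000 bp the highest purine share was 83.3%, and TCHH came second.

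Over the epidermal differentiation region as a whole, the listed genes were 7 S100-fused, 37 cornified envelope and 16 S100 genes. Of all these, 6 had a ZMYND8 peak over the body and 10 had a FLAG-ZMYND8 peak, of which 3 and 9 are S100 genes. The shares over all protein-coding genes were 40.1% and 65.8%. Of the 7 S100-fused genes, which add FLG2 (filaggrin 2) and CRNN (cornulin) to the members, TCHH alone had a peak over its body, in both lists. None had one at its start, where 34.1% (ZMYND8) and 58.1% (FLAG-ZMYND8) of all protein-coding genes had one. Of 37 cornified envelope genes, LCE3D and LORICRIN (loricrin, a main protein of the cornified envelope) had a ZMYND8 peak over the body, covering 67 and 481 bp. None had a FLAG-ZMYND8 peak. These counts, too, stand beside 40.1% and 65.8% of all protein-coding genes. The LCE3D peak has the minimum width of 151 bp, and its midpoint lies outside the gene body. Of 16 S100 genes, 3 had a ZMYND8 peak over the body (S100A11, S100A4 and S100A13), where 40.1% of all protein-coding genes had one, and 9 had a FLAG-ZMYND8 peak, against 65.8%. Neither count lies above the share of all genes. S100A2 carried the most FLAG-ZMYND8, 2722 bp in 3 peaks of which the widest was 2246 bp, followed by S100A10 and then S100A13 with 1134 bp. S100A5, S100A4, S100A3 and S100A16 had FLAG-ZMYND8 peaks of the minimum width of 167 bp only. S100A4 and S100A3 overlap each other, as do S100A13 and S100A1, so 1 peak can count for both genes of a pair. At the start, 3 S100 genes had a ZMYND8 peak, S100A11, S100A1 and S100A14, the last named after its values were seen. Every S100 gene with a FLAG-ZMYND8 peak over its body also had one within 3 kb of its start, which TCHH did not. Several of these S100 genes are short, such as S100A3, which runs from 153519805 to 153521734. For them the 3 kb window takes in most or all of the body, so gene length enters this contrast.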

How the data were processed

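Each of the 2 lists analysed here, for ZMYND8 and FLAG-ZMYND8 ChIP, is a table that the authors deposited with peak positions and a score column. The deposited score is 1 in every row and ranks nothing, so width was used. Mapping by the authors was to hg19 with BWA-MEM 0.7, and HOMER was used for profiles. Peak-calling settings and how the replicates were combined are not given in the sources used here. Without counts the depth is unknown, and Wilson intervals (95%) cover counting error only.

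Peaks were placed on the genes of GENCODE release 44 lifted to GRCh37. A peak was over a gene, exon or other peak with at least 1 bp of overlap, and at a start with its midpoint within 3 kb of the 5′ end. Repeats came from blastn (BLAST+ 2.17.0, word size 11) of each exon against itself, and unique words from a scan of the genome. Functions were tested on simulated data. Python 3.11.15, numpy 2.4.6, pandas 2.3.3, scipy 1.17.1, numba 0.67.0 and matplotlib 3.10.9 were used.

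Members, lists and measures were chosen with earlier results of these data known. Genes were named as members, as listed genes of the region with a peak over the body, as the 5 genes after TCHH with the most bases of a long coding exon under a distal ZMYND8 peak (a sixth, ZNF831, completes the set and was named after its values were seen), and as the nearest genes of the peaks next to TCHH by width or position. Single exons and codons named as leading or second, and the repeat unit of 18 bp, were chosen after their values were seen. Alternatives varied the peaks used, the overlap, the windows, the repeat limits, the word length and the exon length.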

Additional observations from a re-analysis of the deposited data

How the results depend on the processing

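No paired analysis was possible because each list is a single table without replicate names, which also means that leaving out a replicate could not be tried. Of 61 alternative values, 41 stayed within 1.5 times the main count or inside its 95% Wilson interval, and 20 moved. For shares of bases or words that interval took each base of the peak or exon as 1 independent draw. There it serves as a limit for change only and does not measure sampling error. The counts of members with a peak over the body or at the start were 2 and 1 for ZMYND8 and 3 and 2 for FLAG-ZMYND8 under each alternative tried. When a shared site needed 50% reciprocal overlap, 1 peak of each list remained shared over the members (the S100A11 pair), since the FLAG-ZMYND8 peaks in TCHH are much narrower than the ZMYND8 peak. Measured over 200 bases around the midpoint, the TCHH ZMYND8 peak had a GC content of 57.5% and a purine share of 78%. Without peaks of the minimum width, 2.08% of the long coding exons had a ZMYND8 and 6.60% a FLAG-ZMYND8 peak, and 6 in place of 10 listed genes of the region had a FLAG-ZMYND8 peak. Repeated sequence in the TCHH exon was 75.6% at 70% identity, 2.65% at 90% and 25.6% with alignments of at least 100 bases. Unique words in it made up 89.8% at 36 bases and 98.6% at 100 bases. Input and histone mark samples were not analysed, so signal over input at TCHH was not measured, and the depth that limits the extent of each call is unknown.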

Other observations

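Few wide peaks of either list lie on sequence with as strong a purine excess as TCHH. Among peaks of at least 1000 bp, those with 65% or more purines on the richer strand numbered 1 of 842 in the ZMYND8 list, in TCHH, and 3 of 1147 in the FLAG-ZMYND8 list. These 3 were the wide TCHH peak with 72.0%, a peak of 1027 bp in PRDM16 (a zinc finger transcription factor) on chromosome 1 with 68.7%, and a peak of 1251 bp over the noncoding gene LINC02076 on chromosome 17 with 83.3%. The last has no ZMYND8 peak, and neither of the other genes' peaks holds coding sequence. In the ZMYND8 list the second highest purine share among peaks of at least 1000 bp was 64.6%, just below the limit of 65%. The loci named here were chosen after their values were seen, and no test was made.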
